A study of Mus musculus with 28 samples.

Results

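The cytosolic ribosome is built from ribosomal RNA and a fixed set of proteins, most of them named Rpl in the large subunit and Rps in the small subunit. Their mRNAs are among the most abundant of any cell and typically begin with a run of pyrimidines, the terminal oligopyrimidine tract, through which the mTORC1 kinase, the protein LARP1 and growth signals adjust their translation and stability together. In brain, ribosomes serve neuronal cell bodies, dendrites and glia, and mTORC1 is switched on at the lysosome, the compartment in which progranulin and TMEM106B act.

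Genes were chosen by name and not by their values. They were the protein-coding genes of the deposited count table whose symbol begins with Rpl or Rps followed by a digit, together with Rpsa, Rplp0, Rplp1 and Rplp2, without the kinase genes named Rps6k and without symbols marked as pseudogenes. This gave 86 of the 53801 genes of the table, 52 with large-subunit names and 34 with small-subunit names, spread over 19 chromosomes. Of the 86, 82 had enough counts to be tested among 11746 genes. The 4 that did not were Rpl3l, Rpl10l and Rpl39l, copies with known roles in muscle or testis, and Rpl24, which had 2 counts in all 28 libraries together and whose gene model shares 68.9% of its 3' windows (defined below) with other annotated genes. One member by name, Rps19bp1, encodes a protein that binds Rps19 and is not itself a ribosomal protein.

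RNA came from frozen, powdered hemibrains of C57Bl/6J mice, cerebellum included and olfactory bulb left off, 1 per mouse, in 4 groups of 7. DKO AAV mice lacked Grn and Tmem106b and had received AAV(L):bPGRN, a liver-directed vector, by tail vein. It codes for human progranulin joined to 8D3, an antibody fragment against the mouse transferrin receptor. DKO saline mice had the same genotype and received saline, WT AAV mice were wildtype and received the vector, and WT saline mice were wildtype and received saline. All were 15 to 16 weeks old when the brain was taken, each DKO group held 4 females and 3 males, each WT group 3 females and 4 males, and each of the 4 labelled batches held mice of every group. Libraries were read by QuantSeq, which counts 1 tag near the 3' end of each polyadenylated molecule, so that counts do not scale with transcript length. Levels are given as CPM, a count relative to the TMM-scaled library total. Differences between groups are on the log2 scale with their SE, and p-values come from the quasi-likelihood test of edgeR, adjusted by the Benjamini-Hochberg method over all tested genes.

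Total counts ran from 1403921 to 2010413 in DKO AAV, 1206300 to 2389815 in DKO saline, 1210206 to 1613308 in WT AAV and 1164637 to 1547180 in WT saline. Tmem106b stood at 9.61 ± 2.18 CPM in DKO AAV and 12.7 ± 4.78 CPM in DKO saline, against 121 ± 17.2 CPM in WT AAV and 119 ± 23.1 CPM in WT saline (SD, n = 7 each). Grn tags stood at 126 ± 27.7 CPM in DKO AAV, 191 ± 66.9 in DKO saline, 175 ± 32.7 in WT AAV and 180 ± 73.8 in WT saline. Tags outside the deleted stretch, which the labels do not give, check nothing. RIN, the RNA integrity number, averaged 9.11 ± 0.49 in DKO AAV, 9.43 ± 0.23 in DKO saline, 9.51 ± 0.27 in WT AAV and 9.50 ± 0.31 in WT saline, and 2 libraries, both DKO AAV, had a RIN under 9. Mitochondrially encoded genes took 16.3 ± 2.01% of counts in DKO AAV and 15.8 ± 2.42% in DKO saline, against 19.0 ± 1.51% in WT AAV and 20.1 ± 0.90% in WT saline. Both DKO groups were lower than WT saline by a two-sided exact permutation test (p = 0.00117 each, 0.00932 adjusted over 16 such tests), whereas RIN did not pass (DKO AAV against WT saline, exact p = 0.125, adjusted 0.277). Markers of neurons, glia and endothelium were present in all groups.

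As a reference for how these genes begin, RefSeq promoters (GRCm38.p6, 250 bases before to 50 after each annotated start) were matched for 66 of the 86 genes. A C or T at the annotated start followed by 4 more pyrimidines was present in 17 of the 66 (25.8%), against 5.28% of 27025 genes with a promoter. The letters CTTTCC, on the coding strand within 10 bases of the start, were present in 11 of the 66 (16.7%), against 1.30% of all. The sequences below run from 40 bases before to 20 bases from the annotated start, and show the 7 genes with the smallest p between DKO AAV and WT saline that have an entry, then Rps27rt and its parent Rps27. Capitals mark the run of at least 5 pyrimidines that covers or lies nearest to the start, within 10 bases of it. They lie at chr8:123102310-123102369 (plus strand, Rpl13), chr9:120127726-120127785 (plus, Rpsa), chr17:27635225-27635284 (minus, Rps10), chr15:5116573-5116632 (plus, Rpl37), chr11:68901526-68901585 (plus, Rpl26), chr7:118116128-118116187 (minus, Rps15a), chr2:32961672-32961731 (plus, Rpl12), chr9:114982720-114982779 (minus, Rps27rt) and chr3:90213629-90213688 (minus, Rps27).
Rpl13: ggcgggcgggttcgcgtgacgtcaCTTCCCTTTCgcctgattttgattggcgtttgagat
Rpsa: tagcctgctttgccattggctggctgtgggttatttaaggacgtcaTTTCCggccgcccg
Rps10: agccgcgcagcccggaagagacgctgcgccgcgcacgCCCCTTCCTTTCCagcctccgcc
Rpl37: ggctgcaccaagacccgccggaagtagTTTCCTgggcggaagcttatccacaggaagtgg
Rpl26: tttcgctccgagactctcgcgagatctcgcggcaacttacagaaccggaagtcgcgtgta
Rps15a: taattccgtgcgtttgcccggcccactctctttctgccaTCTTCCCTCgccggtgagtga
Rpl12: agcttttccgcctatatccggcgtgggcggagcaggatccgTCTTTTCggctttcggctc
Rps27rt: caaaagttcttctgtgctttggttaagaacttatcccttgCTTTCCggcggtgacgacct
Rps27: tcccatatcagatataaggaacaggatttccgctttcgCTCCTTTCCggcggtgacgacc

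Rpl26 has no such run near this annotated start. Rps27rt, an intronless retrotransposed copy of Rps27, holds CTTTCC near its start, as its parent does. Over the 300 bases, on either strand, CCGGAAG, the core bound by ETS factors, was present in 26 of the 66 genes (39.4%, against 9.93% of all), ATGGCG, the core bound by YY1, in 21 (31.8%, against 10.2%), GGGCGG, a GC box, in 41 (62.1%, against 38.2%) and TATAAA in 7 (10.6%, against 15.7%). Among the 8785 tested genes with a promoter, the shares were 19.1% for CCGGAAG, 17.9% for ATGGCG, 70.8% for GGGCGG and 8.79% for TATAAA. Overlaps between sites of different motifs were not counted apart.

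Ribosomal protein transcripts covered a wide range of levels in the hemibrain. The median of the 82 tested genes was 297 CPM, against 26.6 CPM over all tested genes, and the most abundant stood 238 times above the least abundant. Rps21 had the highest mean level over the 28 libraries, 3073 CPM, followed by Rps29 with 2041, Rpl37 with 1721, Rps14 with 1522, Rplp1 with 1130 and Rps20 with 1117 CPM. The 4 most abundant together gave 24.8% of all ribosomal protein CPM. At the low end were Rpl36al with 12.9 CPM, Rpl10a with 19.0, Rps6 with 22.0, Rps19bp1 with 29.1, Rpl7l1 with 33.2 and Rpl19 with 39.3 CPM.

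Low tag levels occurred also for core proteins such as Rps6, the substrate of S6 kinase, and Rpl10a. Many of these genes have processed pseudogenes, and a read that maps to several places may be lost or split, which is uncertain here because the counting rule is not given in the sources used. In the last 200 bases of each gene's first listed GENCODE M21 transcript, 38 of the 82 tested genes shared at least 50% of their 50-base windows exactly with another annotated gene, 18 shared fewer and 26 shared none. The median level was 296 CPM in the 38, 367 CPM in the 18 and 264 CPM in the 26. Of the 20 tested genes with the lowest levels 9 were among the 38, and of the 20 with the highest also 9. Rpl12, Rps27, Rpl9, Rpl10, Rpl36a and Rps12 shared all their windows and Rpl13 72.2%, while Rpsa, Rpl37, Rpl23 and Rplp2 shared none. This check was chosen after the values had been seen.

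Within each library, the summed level of the 86 genes was lowest in DKO AAV. It ran from 25189 to 33552 CPM (median 27360) in DKO AAV, 26791 to 41264 CPM (median 36489) in DKO saline, 31301 to 39504 CPM (median 35778) in WT AAV and 31472 to 38660 CPM (median 37451) in WT saline. In 5 of 7 DKO AAV libraries, 3 of 7 DKO saline libraries and 1 of 7 WT AAV libraries the sum lay below the lowest WT saline library, and the 4 ranges overlapped. As a share of raw counts, the genes took 2.95 ± 0.19% in DKO AAV, 3.46 ± 0.42% in DKO saline, 3.44 ± 0.23% in WT AAV and 3.47 ± 0.20% in WT saline (SD, n = 7 each).

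**Figure D1:**
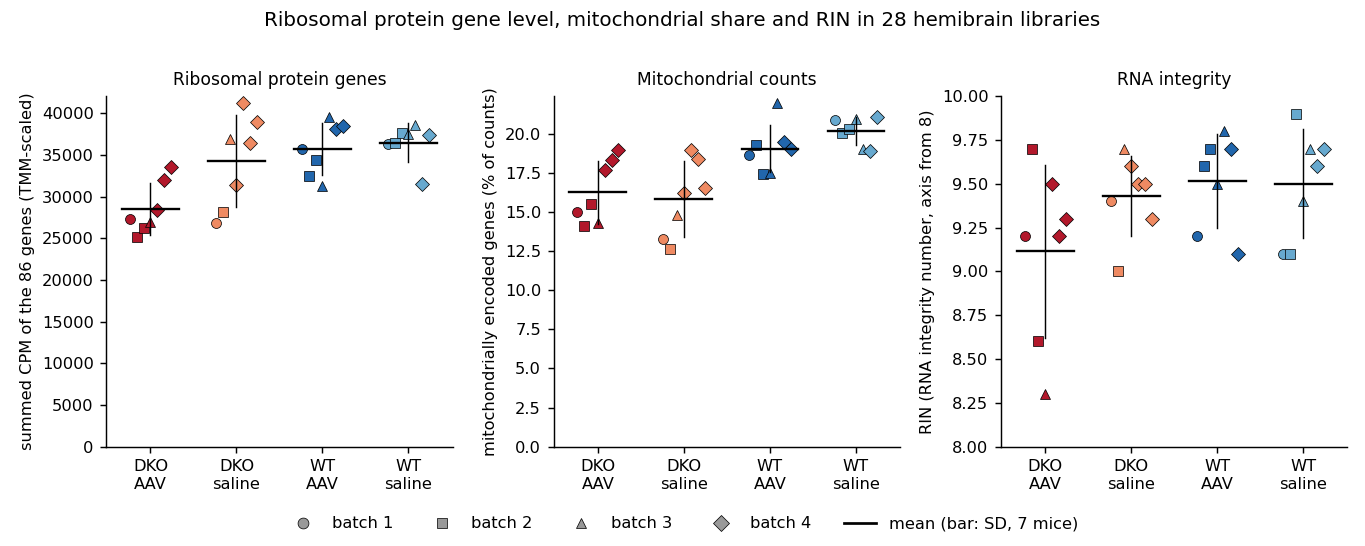
Each point is 1 mouse, with batch as its shape, in the order DKO AAV, DKO saline, WT AAV and WT saline; lines are means and bars SD over 7 mice. The left panel plots summed CPM of the 86 genes, the middle panel the percent of counts from mitochondrially encoded genes and the right panel RIN on an axis that starts at 8; the 7 DKO AAV sums run from 25189 to 33552 CPM, and DKO libraries are low in the middle panel too.

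In the DKO groups, the libraries with the lowest sums also had the lowest mitochondrial shares, and sums differed by batch. The 2 DKO saline libraries of batches 1 and 2 had sums of 26791 and 28113 CPM with mitochondrial shares of 13.2% and 12.6% and RINs of 9.4 and 9.0. The other 5 DKO saline libraries had sums of 31350 to 41264 CPM with mitochondrial shares of 14.8 to 19.0%. The one with a share of 14.8%, replicate 3, had a sum of 36933 CPM. Among DKO AAV libraries, the 3 of batch 4 had sums of 28374, 31993 and 33552 CPM with shares of 17.7%, 18.3% and 19.0%, while the 4 of batches 1 to 3 had sums of 25189 to 27360 CPM with shares of 14.1 to 15.5%. The order of batches differed in the WT groups. The lowest WT saline sum, 31472 CPM with a share of 18.9%, was from batch 4. The lowest WT AAV sum, 31301 CPM with a share of 17.5%, was from batch 3. The 2 DKO AAV libraries with a RIN of 8.6 and 8.3 had sums of 26213 and 27015 CPM, while the other 5, with RINs of 9.2 to 9.7, had sums of 25189 to 33552 CPM, 1 of them below and 4 above those of low RIN. In bulk tissue, fewer cells of a type and less RNA per cell cannot be told apart.

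Vector-treated DKO mice were first compared with untreated wildtype mice, which asks what differed from the normal state in treated mutants. Of the 82 genes, 48 were lower in DKO AAV than in WT saline and 0 were higher, by 0.23 to 0.68 on the log2 scale, and 78 of the 82 estimates were negative. Over all tested genes 3.5% were called lower in this comparison. The median of the 82 was -0.34 (-20.8% on the linear scale), against 0.01 over all tested genes. With library totals in place of TMM factors the members' median was -0.20 while that of all genes was 0.15, and 26 genes were called lower.

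Both subunits took part: 25 of 48 tested genes with large-subunit names and 23 of 34 with small-subunit names were called, with medians of -0.33 for the large and -0.34 for the small subunit. Calls were more frequent among abundant genes, 34 of the 41 above the median level (median difference -0.37) and 14 of the 41 below it (median -0.28). Every DKO AAV library lay below every WT saline library for 15 genes (18.3% of the 82), against 0.792% of all tested genes. They included Rpl4, Rpl5, Rpl7, Rpl8, Rpl12, Rpl13, Rpl26, Rpl36, Rplp0, Rps9, Rps10, Rps15a, Rps20 and Rpsa. This count was read without any adjustment for batch or sex.

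**Figure D2:**
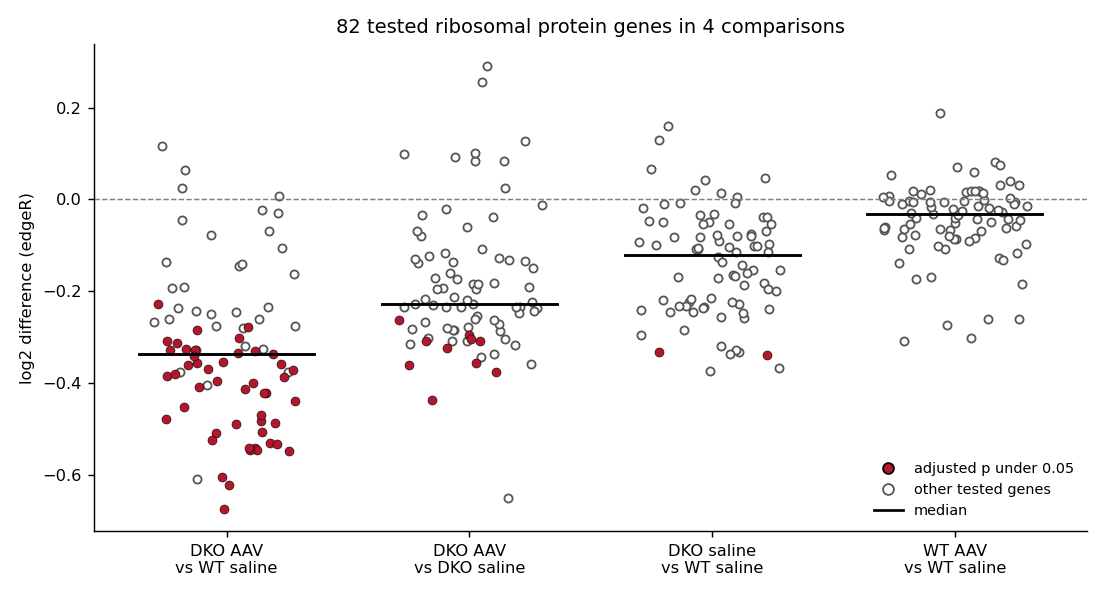
Log2 differences (edgeR) of the 82 tested genes in 4 comparisons; red points have an adjusted p under 0.05, open points do not, and lines are medians. The medians are -0.34, -0.23, -0.12 and -0.03 from left to right, with 48, 10, 2 and 0 called genes, all of them lower; the comparisons share groups and are not independent of each other.

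Rpl13, a large-subunit protein (ENSMUSG00000000740, chromosome 8, 123102350 to 123105244, plus strand, GRCm38), had the smallest p. Its level ran from 143 to 200 CPM (median 180) in DKO AAV, 157 to 286 (median 218) in DKO saline, 201 to 349 (median 247) in WT AAV and 238 to 317 CPM (median 264) in WT saline. The DKO AAV and WT saline libraries did not overlap, while the DKO saline libraries spread over both ranges, and the difference was -0.68 ± 0.10 (adjusted p = 0.000155).

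Rpsa (ENSMUSG00000032518, chromosome 9, 120127689 to 120132369, plus strand), a small-subunit protein also known as the laminin receptor precursor, ran from 125 to 150 CPM (median 131) in DKO AAV and 167 to 215 CPM (median 193) in WT saline. It has no shared 3' windows, and the difference of -0.52 ± 0.09 (adjusted p = 0.000362) separated the 2 groups fully. Rps10 (ENSMUSG00000052146, chromosome 17, 27630422 to 27636629, minus strand), whose promoter above holds a long pyrimidine run across the start, ran from 233 to 308 CPM (median 258) in DKO AAV and from 335 to 454 CPM (median 360.5) in WT saline, again without overlap (-0.55 ± 0.09, adjusted p = 0.000401).

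Rpl37 was among the most abundant, at 1138 to 1718 CPM (median 1314) in DKO AAV and 1607 to 2241 CPM (median 1942) in WT saline. These ranges overlapped, with the 2 highest DKO AAV libraries, both from batch 4, above the lowest WT saline library, also from batch 4 (-0.53 ± 0.09, adjusted p = 0.00073). Rpl26, a large-subunit protein, ran from 245 to 372 CPM (median 301) in DKO AAV and from 375 to 532 CPM (median 459) in WT saline, just without overlap (-0.61 ± 0.11, adjusted p = 0.000786). Rps15a ran from 204 to 286 CPM (median 248) in DKO AAV, against 315 to 369 CPM (median 342) in WT saline (-0.49 ± 0.09, adjusted p = 0.0013). Rpl12, at the base of the stalk, ran from 209 to 258 CPM (median 227) in DKO AAV, against 281 to 392 CPM (median 328) in WT saline (-0.54 ± 0.10, adjusted p = 0.0014). Rpl12, Rps15a and Rpl26 share 100%, 76.2% and 67.5% of their 3' windows with other annotated genes, so their counts are less certain than those of Rpsa or Rpl37.

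**Figure D3:**
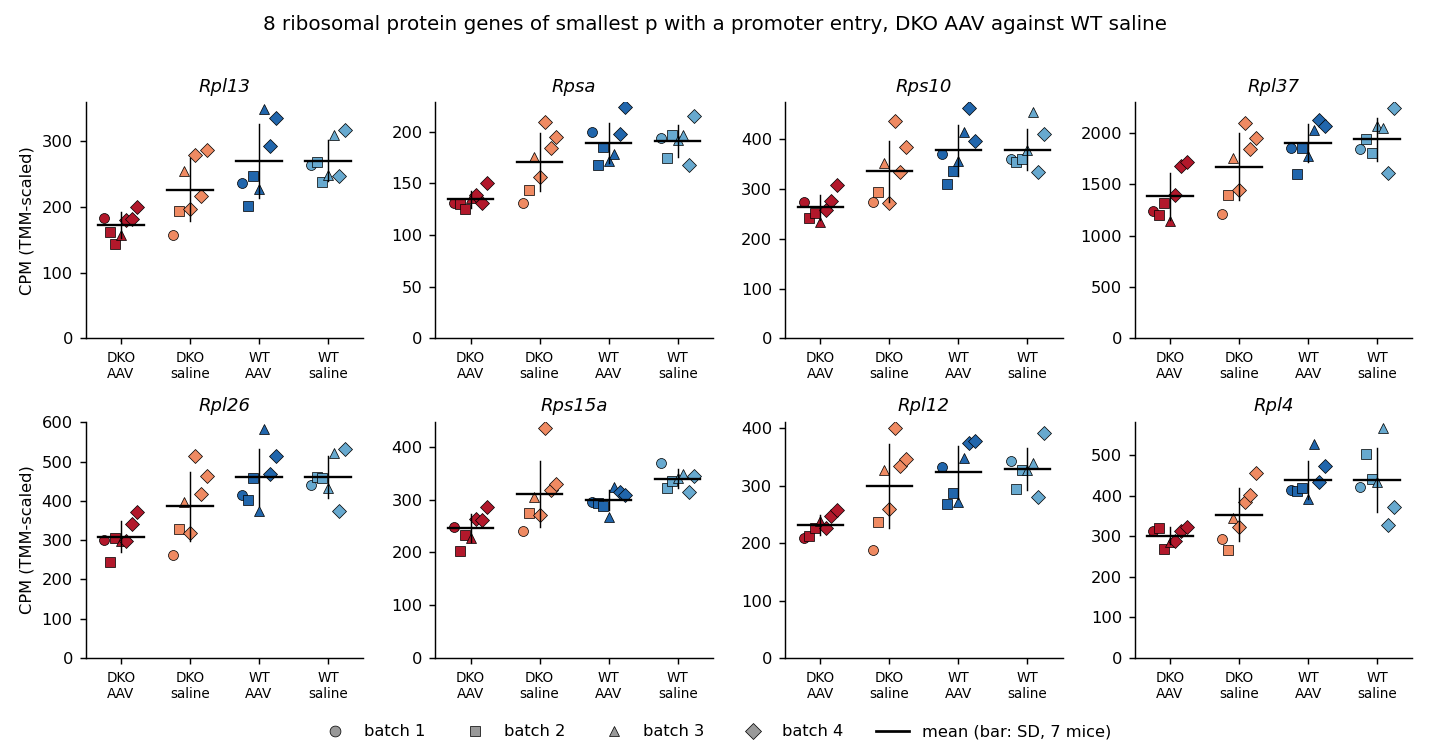
Level in CPM (axes from 0) of the 8 genes with a promoter entry and the smallest p between DKO AAV and WT saline in each mouse, by group and batch; lines are means and bars SD over 7 mice. DKO AAV libraries lie below WT saline libraries in every panel except Rpl37, where batch 4 overlaps, and DKO saline libraries spread over both ranges.

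Members at the extremes of level or with roles beyond the bulk of the ribosome did not all pass. Differences between members were not tested. Among the most abundant, Rps21 gave -0.48 ± 0.11 (adjusted p = 0.00748), Rps29 -0.36 ± 0.09 (adjusted p = 0.0143) and Rps14 -0.33 ± 0.09 (adjusted p = 0.0215), while among the least abundant Rpl19 gave -0.14 ± 0.13 (adjusted p = 0.616) and Rps19bp1 0.06 ± 0.15 (adjusted p = 0.864). The P stalk recruits the GTPases that drive elongation, and its protein Rplp0 averaged 226 ± 15.4 CPM in DKO AAV and 300 ± 35.5 CPM in WT saline (-0.42 ± 0.09, adjusted p = 0.00415). Its partners gave -0.38 ± 0.09 for Rplp1 (adjusted p = 0.00663) and -0.26 ± 0.09 for Rplp2 (adjusted p = 0.0814), so that 2 of the 3 stalk genes were called. Rpl5 and Rpl11, which with the small rRNA of the large subunit form the particle that restrains MDM2, were both lower, Rpl5 by a difference of -0.51 ± 0.10 (adjusted p = 0.00181) and Rpl11 of -0.37 ± 0.10 (adjusted p = 0.0229).

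Rps19, mutated in human Diamond-Blackfan anaemia, was lower (-0.55 ± 0.12, adjusted p = 0.00409), as was Rps25, which several viral internal ribosome entry sites need (-0.54 ± 0.11, adjusted p = 0.00282). Rpl38, needed in mouse embryos for translation of Hox mRNAs, was lower by a smaller amount (-0.35 ± 0.09, adjusted p = 0.0148). Rps27a, made as a fusion with ubiquitin, gave -0.33 ± 0.12 (adjusted p = 0.108), Rpl13a, known in human cells for silencing inflammatory mRNAs after its release from the ribosome, -0.32 ± 0.12 (adjusted p = 0.142), Rpl10a -0.19 ± 0.17 (adjusted p = 0.578) and Rps6 0.01 ± 0.33 (adjusted p = 0.996), none of which passed. Rps6 had 32.9 tags per library on average, and its SE of 0.33 is as large as the median difference of the 82 genes, so that a difference of that size was not detectable for it.

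Paralogs could be set beside their parents where both were counted. Rpl22l1, which can replace Rpl22, gave -0.28 ± 0.15 (adjusted p = 0.316) between DKO AAV and WT saline, and Rpl22 -0.29 ± 0.08 (adjusted p = 0.0416). Rpl36al, a retrotransposed copy, gave -0.61 ± 0.24 (adjusted p = 0.152) at 12.9 CPM, and its parent Rpl36a -0.42 ± 0.09 (adjusted p = 0.0037) at 392 CPM. Rpl7l1, a protein of ribosome assembly, gave 0.02 ± 0.13 (adjusted p = 0.945), and Rpl7 -0.33 ± 0.08 (adjusted p = 0.0113). Rps27l gave -0.28 ± 0.13 (adjusted p = 0.232), Rps27 -0.27 ± 0.11 (adjusted p = 0.169) and the retrotransposed Rps27rt -0.49 ± 0.10 (adjusted p = 0.00302), but Rps27 and Rps27rt share 3' windows and reads can pass between them. Differences between a paralog and its parent were not tested. Of the untested copies, Rpl3l, the muscle form of Rpl3, had at most 3 counts in a library, Rpl39l, a testis form of Rpl39, also at most 3, and Rpl10l, the testis form of Rpl10, had 0 in all 28 libraries. Their parents gave -0.26 ± 0.08 for Rpl3 (adjusted p = 0.0626), -0.34 ± 0.09 for Rpl39 (adjusted p = 0.0159) and 0.12 ± 0.17 for Rpl10 (adjusted p = 0.779).

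Within batches, the median difference between DKO AAV and WT saline was negative in all 4. The median over the 82 genes was -0.36 in batch 1 (1 mouse against 1), -0.51 in batch 2 (2 against 2), -0.45 in batch 3 (1 against 2) and -0.14 in batch 4 (3 against 2). In batch 4, 23 of the 82 genes were higher. Of all 82 genes, 53 were lower in all 4 batches, as were 46 of the 48 called genes. Those 48 were called from these same libraries, so the second count is no separate evidence. The count of called genes was 44 without batch 1, 7 without batch 2, 20 without batch 3 and 50 without batch 4. With each mouse left out in turn it ran from 30, without DKO AAV replicate 4, to 55, without WT saline replicate 6, and 28 of the 48 were called in every one of these fits.

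RNA measures were read beside the count. With RIN as a term 32 genes were called, all among the 48, and the median was -0.34. Without the 2 DKO AAV libraries of RIN under 9, 13 were called, all among the 48 (with Rpl4, Rpl5, Rpl8, Rpl12, Rpl13, Rpl26, Rpl34, Rpl37, Rps10, Rps15a, Rps27rt and Rpsa), with a median of -0.30. With the mitochondrial share of counts as a term, 0 were called by edgeR (17 at an unadjusted p under 0.05) and the median was -0.10; this share differs between the genotypes, so the fit takes away part of the group difference as well. Both alternatives, without low RIN and with mitochondrial share, were chosen after the data had been seen.

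**Figure D4:**
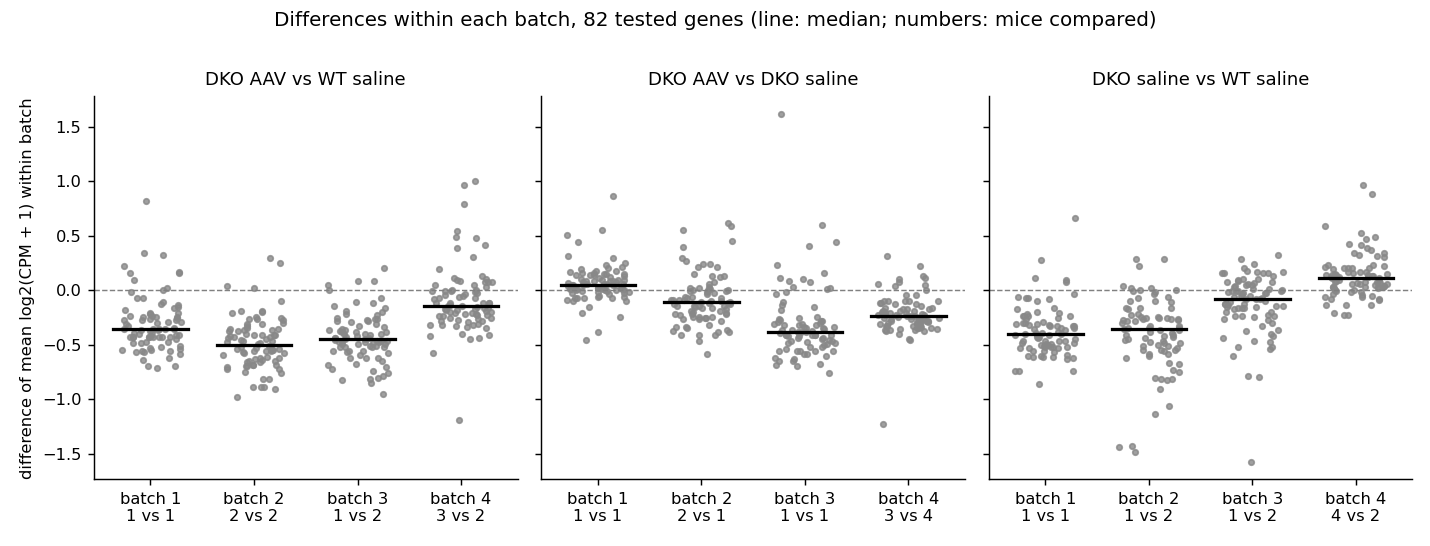
Difference of mean log2(CPM + 1) within each batch for each of the 82 tested genes (points) and their median (line), in 3 comparisons; the numbers under each batch are the mice compared. DKO AAV against WT saline has negative medians in all 4 batches (-0.36, -0.51, -0.45 and -0.14), while DKO saline against WT saline is negative in batches 1 to 3 and positive (0.11) in batch 4.

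The vector's effect in the mutants was read between DKO AAV and DKO saline. Here 10 of the 82 genes were lower and 0 were higher, against 2.04% of all tested genes called lower, with a median of -0.23 (0.00 over all tested genes), and 47 had an unadjusted p under 0.05, all of them lower. Among the 10 were Rps27rt, Rps20, Rps9, Rps18, Rpl23, Rpl8, Rps12, Rplp2 and Rpsa, and 7 of the 10 had small-subunit names.

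Rps27rt (ENSMUSG00000050621, chromosome 9, 114982366 to 114982739, minus strand) ran from 64.7 to 107 CPM (median 83.6) in DKO AAV and from 89.2 to 148 CPM (median 117) in DKO saline. The ranges overlapped, and the difference was -0.44 ± 0.10 (adjusted p = 0.0145); it was the only one of the 10 called in all 28 fits that leave out 1 mouse. Rps20 ran from 833 to 1018 CPM (median 896) in DKO AAV and from 892 to 1481 CPM (median 1171) in DKO saline, with a difference of -0.36 ± 0.09 (adjusted p = 0.0195). Rps9 ran from 269 to 314 CPM (median 298) in DKO AAV and from 312 to 418 CPM (median 393) in DKO saline, close to separate (-0.32 ± 0.08, adjusted p = 0.0257). Rps18 differed by -0.36 ± 0.10 (adjusted p = 0.0426), Rpl23 by -0.31 ± 0.09 (adjusted p = 0.0426), Rpl8 by -0.26 ± 0.07 (adjusted p = 0.043) and Rps12 by -0.38 ± 0.11 (adjusted p = 0.0447). No gene had every DKO AAV library below every DKO saline library (0 of 82, against 0.392% of all tested genes). The summed levels of DKO saline replicates 1, 2 and 4 (26791, 28113 and 31350 CPM) lay within the DKO AAV range of 25189 to 33552 CPM. Which library overlapped differed by gene. For Rps9, replicates 1 and 2 (320 and 364 CPM) lay above every DKO AAV library and replicate 4 (312 CPM) did not.

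This comparison rested on few mice. The count of called genes was 31 without DKO saline replicate 1 and 18 without DKO saline replicate 4. It was 1 without DKO saline replicate 3 or without DKO AAV replicate 5, 2 or 3 without any of DKO saline replicates 2, 5 or 7 or DKO AAV replicates 2, 3, 4 or 7, 4 without WT saline replicate 4 and 6 without DKO AAV replicate 6. It was 31 without batch 1, 0 by edgeR without batches 2, 3 or 4 (40, 31 and 15 at an unadjusted p under 0.05) and 0 without the 2 libraries of RIN under 9 (37 at an unadjusted p under 0.05). It was 22 by DESeq2, 10 by limma-trend and 37 with the mitochondrial share as a term, a share that averaged 16.3% in DKO AAV and 15.8% in DKO saline (two-sided exact permutation p = 0.714). Medians within batches were 0.05, -0.11, -0.38 and -0.23 for batches 1 to 4, with the most mice, 3 against 4, in batch 4. In batch 4 all 4 DKO saline mice were 16 weeks old and all mice of the other groups 15.5 weeks, so that age and group cannot be told apart there. With only DKO AAV and DKO saline in the fit, 7 genes were called lower and 1, Rpl17, higher.

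The genotype's effect without vector was small. Between DKO saline and WT saline 2 of the 82 genes were lower and 0 higher, against 3.18% of all tested genes called lower, with a median of -0.12 (0.00 over all tested genes) and 19 at an unadjusted p under 0.05, all of them lower. With library totals in place of TMM factors the median was -0.01 and that of all genes 0.12. Rpl13, one of the called genes, ran from 157 to 286 CPM (median 218) in DKO saline, against 238 to 317 CPM (median 264) in WT saline, and the ranges overlapped (-0.33 ± 0.10, adjusted p = 0.0489). Among the genes next in p were Rpl37 (-0.29 ± 0.10, adjusted p = 0.0569), Rpl4 (-0.33 ± 0.11, adjusted p = 0.0584), Rpl26 (-0.32 ± 0.11, adjusted p = 0.0764), Rps19 (-0.33 ± 0.12, adjusted p = 0.0958), Rpl6 (-0.25 ± 0.09, adjusted p = 0.0994) and Rpl14 (-0.23 ± 0.09, adjusted p = 0.131).

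By batch the genotype difference ranged from negative to positive. Medians were -0.40, -0.36, -0.08 and 0.11 for batches 1 to 4, and 64 of the 82 genes had a positive difference within batch 4, which held 4 of the 7 DKO saline mice, all of them older than the WT saline mice of that batch (16 against 15.5 weeks). The count of called genes was 18 without batch 4, 1 without batch 3 and 0 without batch 1 or batch 2. It was 0 without DKO saline replicate 1, DKO saline replicate 2 or WT saline replicate 2, 9 without DKO saline replicate 5, 8 without WT saline replicate 6, 3 without DKO saline replicate 7 and 1 in most of the others. With the mitochondrial share as a term it was 0, with a median of 0.17.

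In wildtype mice no ribosomal protein gene was called after the vector. Between WT AAV and WT saline 0 of the 82 genes passed, by edgeR, DESeq2 or limma-trend, as did 0.0% of all tested genes, and the median was -0.03 (0.00 over all tested genes). The 2 at an unadjusted p under 0.05 were Rps15a (-0.19 ± 0.09, adjusted p = 0.999) and Rps27l (-0.26 ± 0.13, adjusted p = 0.999). Rps15a ran from 266 to 325 CPM (median 296) in WT AAV and from 315 to 369 CPM (median 342) in WT saline, overlapping at the edge. The genes next in p were Rpl29 (-0.27 ± 0.15), Rpl5 (-0.17 ± 0.10), Rpl6 (-0.14 ± 0.09), Rpl18 (-0.17 ± 0.13), Rpl36al (-0.30 ± 0.24) and Rpl10a (0.19 ± 0.16). The SE of the 82 differences had a median of 0.10, so a difference of the size seen between DKO AAV and DKO saline was not shown to be absent.

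Whether the vector acted differently by genotype was tested in the same fit. No gene passed (0 of 82 by edgeR and by DESeq2, against 0.017% of all tested genes), with 20 at an unadjusted p under 0.05, all with a more negative vector effect in DKO mice, and a median of -0.19. The smallest p was for Rpl8 (-0.30 ± 0.10, adjusted p = 0.277), then Rps20 (-0.36 ± 0.12, adjusted p = 0.277) and Rpl23 (-0.34 ± 0.12, adjusted p = 0.303). Among the next in p were Rpl38 (-0.34 ± 0.12), Rps7 (-0.36 ± 0.13), Rps27rt (-0.37 ± 0.14) and Rplp1 (-0.32 ± 0.12). The lower levels in treated mutants were thus not shown to be particular to their genotype.

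Covariates of the samples were read in the same way. At an adjusted p under 0.05 by edgeR, the slope on RIN was called for 0 of 82, against 0.025% of 12007 tested genes, sex for 0, against 0.0511% of all tested genes, and batch for 0, against 1.1% of all tested genes. By DESeq2 batch was called for 2 of the 82. At an unadjusted p under 0.05, edgeR gave 0 members for RIN, 1 for sex and 16 for batch. The smallest batch p was for Rps27rt (adjusted p = 0.105).

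Between mice, ribosomal protein genes moved together. After removal of group, sex and batch means, pairs of the 82 genes correlated with a median r of 0.49 over 28 libraries, and 92.1% of the 3321 pairs were positive. The genes share library, depth and scaling, so this is a description. The residual SD of log2 CPM had a median of 0.18, against 0.17 for 1180 other genes between 125 and 523 CPM. It was lowest for Rps26 (0.081), Rpl8 (0.10), Rpl23a (0.12) and Rpl7 (0.12) and highest for Rps6 (0.83), Rpl35 (0.59), Rpl17 (0.52) and Rpl36al (0.47).

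The variable genes formed a second pattern, seen in the data and named after it. The first component of the residuals held 49.6% of the members' variance and the second 16.5%, with Rps6, Rpl17, Rpl35, Rpl15, Rpl30, Rpl10 and Rps3a1 among the 8 that lead its one side and Rps20 and Rplp1 among those that lead the other. Rpl17 correlated with Rpl35 (r = 0.92), Rps6 (r = 0.91) and Rpl30 (r = 0.90) over 28 libraries, but less with Rpl15 (r = 0.69). The 28 pairs among the 8 leading genes, which were picked for going together, had r from 0.38 to 0.93 (median 0.75). Outside the family, the genes most like Rpl17 among 11745 were Net1 (r = 0.93), Gnas (0.93), Atp5j (0.92) and Ndufa1 (0.92), and 125 had an r over 0.8.

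Levels of the genes of this pattern overlapped between the groups. Rpl17 ran from 167 to 365 CPM (median 247) in DKO AAV, 124 to 268 (median 201) in DKO saline, 133 to 463 (median 219) in WT AAV and 131 to 355 CPM (median 306) in WT saline. Rps6 ran from 12.5 to 35.2 CPM in DKO AAV, 10.8 to 25.9 in DKO saline, 3.80 to 34.9 in WT AAV and 5.60 to 35.2 CPM in WT saline. The 4 ranges overlapped for both genes, and none of the 8 leading genes was called in any comparison of the fit over 28 libraries. Their differences between DKO AAV and WT saline included -0.08 ± 0.23 for Rpl17, -0.07 ± 0.25 for Rpl35 and -0.14 ± 0.14 for Rpl30. Within batches, Rpl17 was higher in DKO AAV than in DKO saline by 0.32, 0.62, 0.44 and 0.32 in batches 1 to 4. Batches 1 and 3 compared 1 mouse with 1. Rpl35, Rps6 and Rpl30 were also higher in all 4 batches, while Rpl15, Rpl10 and Rps3a1 were lower in 1, 2 and 3 of them. These within-batch differences were not tested.

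**Figure D5:**
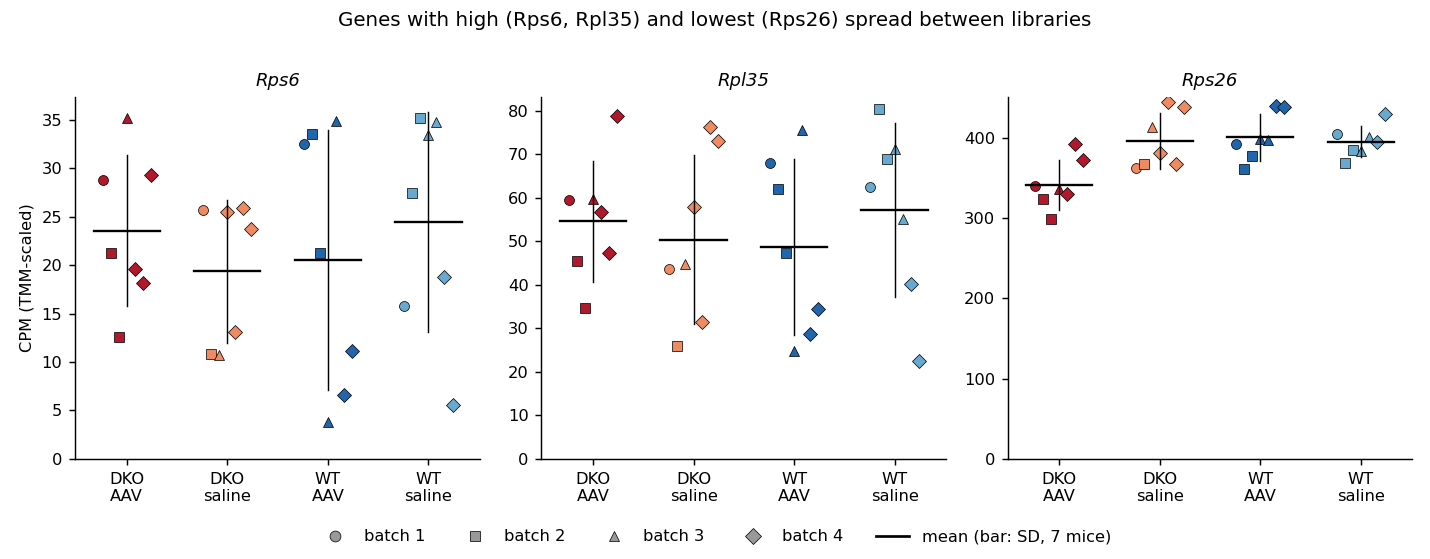
Level in CPM (axes from 0) of Rps6, Rpl35 and Rps26 in each mouse, by group and batch; lines are means and bars SD over 7 mice. Rps6 runs from 3.80 to 34.9 CPM within WT AAV alone, whereas Rps26 stays between 361 and 440 CPM in that group.

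Other genes of the translation machinery were described from lists. Of the ribosomal proteins outside the naming rule, Rack1 (listed as Gnb2l1), a small-subunit scaffold, was lower in DKO AAV than in WT saline (-0.37 ± 0.08, adjusted p = 0.00622) and than in DKO saline (-0.29 ± 0.08, adjusted p = 0.0467), and Fau gave -0.24 ± 0.10 against WT saline (adjusted p = 0.148). Among 21 other genes known for terminal oligopyrimidine mRNAs, 6 were lower and 0 higher in DKO AAV than in WT saline (median -0.19), 3 lower and 0 higher in DKO AAV than in DKO saline (median -0.16), and 3 lower with 1 higher when DKO saline was set against WT saline (median -0.03). Against WT saline, DKO AAV had lower elongation factor Eef2 (-0.56 ± 0.09, adjusted p = 0.000203) and initiation factor subunits Eif3h (-0.51 ± 0.08, adjusted p = 0.000265) and Eif3f (-0.49 ± 0.09, adjusted p = 0.000777). In DKO saline Eef2 (-0.37 ± 0.09, adjusted p = 0.00872) and Eif3f (-0.37 ± 0.09, adjusted p = 0.00841) were lower too, and the higher gene was Vim (0.74 ± 0.14, adjusted p = 0.00109), a filament protein of reactive astrocytes.

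Genes that make and control ribosomes were read in the same comparisons. Over all tested genes, 3.5% were called lower in DKO AAV than in WT saline and 3.18% in DKO saline than in WT saline. Counts called higher over all tested genes are given below with the mitochondrial ribosomal proteins. Of 26 tested ribosome biogenesis genes, 3 were lower and 0 higher in DKO AAV than in WT saline (median 0.05), namely Nop56 (-0.75 ± 0.21, adjusted p = 0.032), Ubtf (-0.35 ± 0.10, adjusted p = 0.0433) and Ncl (-0.29 ± 0.09, adjusted p = 0.0435), which act in rRNA modification, rRNA transcription and the nucleolus. Of 29 tested genes of mTORC1 and its regulators, 1 was higher and 1 lower in DKO AAV than in WT saline (median -0.06), Rraga (0.35 ± 0.08, adjusted p = 0.00805), a GTPase that brings mTORC1 to lysosomes, and Tsc2 (-0.53 ± 0.15, adjusted p = 0.029), which inhibits it. Rraga (0.33 ± 0.08, adjusted p = 0.0107) and Flcn (0.44 ± 0.13, adjusted p = 0.029), which acts on the same GTPases, were the 2 higher genes of that list in DKO saline against WT saline. With 1 or 2 genes called in a direction, the mTORC1 list is not set apart from all tested genes.

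Mitochondrial ribosomal proteins are a separate set of genes. Of 72 tested, 2 were higher and 0 lower in DKO AAV than in WT saline (median 0.00), 0 higher and 2 lower in DKO AAV than in DKO saline (median -0.09) and 4 higher with 0 lower when DKO saline was set against WT saline (median 0.10). Negative estimates numbered 36, 50 and 23 of the 72 in these 3 comparisons, and over all 11746 tested genes 155 were called higher in the first and 413 in the third. Processed pseudogenes of ribosomal proteins gave 0.068 ± 0.005% of counts in DKO AAV, 0.088 ± 0.016% in DKO saline, 0.086 ± 0.012% in WT AAV and 0.086 ± 0.013% in WT saline. Of the 21 with enough counts, 7 were lower and 0 higher in DKO AAV than in WT saline (median -0.54); their reads may come from the parent genes.

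Marker levels of other cells and regions were read beside these counts. The summed level of 8 microglial markers ran from 1029 to 1274 CPM in DKO AAV, 1350 to 2189 in DKO saline, 849 to 1019 in WT AAV and 734 to 1231 CPM in WT saline, and none of them was at 0 in any group. The 5 oligodendrocyte markers summed to 4775 to 7227 CPM in DKO AAV, 4583 to 9143 in DKO saline, 6052 to 10631 in WT AAV and 5890 to 11570 CPM in WT saline, and 2 of the 5, Mobp and Mbp, were lower in both DKO groups than in WT saline, while the others did not pass in either (list medians -0.05 for DKO AAV and -0.17 for DKO saline). The 7 neuronal markers summed to 4046 to 4902 CPM in DKO AAV, 2935 to 4449 in DKO saline, 3897 to 4428 in WT AAV and 3561 to 4379 CPM in WT saline. Of these 7, 2 were called higher and 1 lower in DKO AAV than in WT saline. Against DKO saline, DKO AAV had 1 higher and 0 lower. Against WT saline, DKO saline had 0 higher and 1 lower. The 5 cerebellar granule cell markers summed to 639 to 1185 CPM in DKO AAV, 383 to 966 in DKO saline, 199 to 1014 in WT AAV and 175 to 885 CPM in WT saline. All 5 had positive estimates in DKO AAV against DKO saline (median 0.57) and against WT saline (median 0.45), with 0 called in either, and 2 and 1 of them at an unadjusted p under 0.05. The 7 striatal markers summed to 472 to 843 CPM in DKO AAV, 201 to 704 in DKO saline, 352 to 627 in WT AAV and 379 to 599 CPM in WT saline, and all 7 had positive estimates in DKO AAV against DKO saline (median 0.34, 0 called, 1 unadjusted). Pituitary markers reached 2350 CPM in 1 DKO saline library, and at most 1385 CPM in WT AAV, 950 CPM in WT saline and 83.8 CPM in DKO AAV. The highest group median of their sum was 51.2 CPM, in WT AAV. Without 3 libraries chosen for their low content of regional markers (WT AAV replicate 7, DKO saline replicate 2 and WT saline replicate 6), 57, 2 and 5 ribosomal protein genes were called between DKO AAV and WT saline, DKO AAV and DKO saline, and DKO saline and WT saline. The part of cell content in the ribosomal protein differences was not tested.

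Features of sequence were set beside the calls as a description. A pyrimidine run at the annotated start was present in 9 of 36 genes called between DKO AAV and WT saline with a promoter and in 8 of 26 uncalled ones, CTTTCC near the start in 3 of 36 and 7 of 26, and CCGGAAG in 16 of 36 and 9 of 26. A C followed by 4 pyrimidines, beginning within 10 bases of the start, was present in 20 of 36 and 17 of 26. GGGCGG was present in 19 of 36 and 21 of 26, ATGGCG in 12 of 36 and 7 of 26, and TATAAA in 5 of 36 and 2 of 26. The share of genes with at least 50% of 3' windows in common with another gene was 21 of 48 called and 17 of 34 uncalled. Called genes had a median level of 388 CPM and uncalled ones 113 CPM.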

How the data were processed

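RNA of 28 hemibrains, 1 library per mouse and 7 mice per group, was read by QuantSeq 3' tag sequencing with molecular identifiers. The build GRCm38.p6, STAR, edgeR 3.40.2, R 4.2, MultiQC 1.0 and FastQC 0.11.5 are named in the submitters' processing notes. Which counter, strand setting and rule for reads with several matches applied is not given in the sources used, so overlapping, antisense and near-identical genes cannot be told apart. The deposited counts per gene had been rounded by the authors to 2 significant digits, since 100% of the values above 0 hold no more. Only the 16.9% of these values that are 100 or more can show this. The authors' deposited normalized signal (CPM) was used for limma, and their deposited normalization factors are a ratio. RIN is a score of RNA integrity, deposited per the labels, as are batch and sex.

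Counts were tested with edgeR 4.0.16 (R 4.3.3) by the quasi-likelihood test, with TMM scaling, terms for group, sex and batch over all 28 libraries, filterByExpr with a minimum count of 10 and total of 15, and Benjamini-Hochberg adjustment over 11746 genes at 0.05. The SE is the size of the log2 difference over the root of F. Alternatives used DESeq2 1.42.0, limma 3.58.1, other scaling, filters and terms, and left out mice or batches. Within-batch differences used log2(CPM + 1).

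Samples were grouped by the labels' genotype and treatment. Replicate numbers follow accession order and only name mice, which are separate animals. The members and lists were chosen with earlier results of these data known. Named genes were up to 8 called genes, or the 8 of smallest p, in each comparison, the extremes of level and spread, genes that failed the filter, divergent copies with their parents and genes of special roles; genes named from the other lists and the second pattern were chosen after their values were seen. With total counts of 1164637 to 2389815 per library the median SE of a log2 difference was 0.10.
Certain genes of the family are not reported here by name; they are included in all counts and medians.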

Additional observations from a re-analysis of the deposited data

Results flagged for a closer look

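Of 76 sets of 7 mice examined, for 16 genes and the library measures, 1 held a sample far from the others, where chance gives about 1 in 20. Rpl23, a large-subunit protein, stood at 388.3 CPM in WT saline replicate 6, below the other 6 mice of that group. That mouse also had the lowest summed ribosomal protein level of WT saline, 31472 CPM, with a RIN of 9.6 in batch 4, and 18.9% mitochondrial counts. Rpl23 was called between DKO AAV and DKO saline and between DKO AAV and WT saline.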

How the results depend on the processing

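Results below are counts of called ribosomal protein genes. Between DKO AAV and WT saline (48), the count was 26 with library totals, 7 and 20 without batches 2 and 3, and, chosen after seeing the data, 0 with the mitochondrial share as a term and 13 without the libraries of RIN under 9; leaving out 1 mouse gave 30 to 55. With the mitochondrial share as a term, Rpl9 (0.0566), Rps3 (0.0604) and Rps24 (0.0673, all log2) turned positive in this comparison. Between DKO AAV and DKO saline (10), it was 20 without a filter, 4 with RNA concentration as a term, 8 (7 lower, 1 higher) with only the compared groups, 22 by DESeq2, 31, 0, 0 and 0 without batches 1 to 4, 2 without the 3 libraries of low regional content, and, chosen after seeing the data, 37 with the mitochondrial share and 0 without low RIN; leaving out 1 mouse gave 1 to 31. Between DKO saline and WT saline (2), it was 0 with library totals, group alone, RNA concentration, only the compared groups, or the mitochondrial share, 1 with RLE factors, RIN, either limma pseudocount, the filter by groups or without low RIN, 4 by DESeq2, 0, 0, 1 and 18 without batches 1 to 4, and 5 without the 3 libraries; leaving out 1 mouse gave 0 to 9. Batch was called for 2 genes by DESeq2. Without mitochondrial genes in the total, the genes took 3.53% of counts in DKO AAV, 4.12% in DKO saline, 4.26% in WT AAV and 4.34% in WT saline. The cause of these changes was not tested, beyond fewer mice where some were left out. No paired analysis was possible because the replicate numbers follow accession order. Depth limits what can be seen of the least abundant genes. Rounding to 2 significant digits makes the counts of abundant genes coarser and leaves counts of 1 or 2 digits as they were.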
